A study of Mus musculus with 2 samples.

Results

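The cells described here are lens epithelial cells (LECs) rich in Igfbp5 that had few UMIs of mitotic and histone genes and of 3 beta crystallins, from the anterior lens epithelium of wild-type C57BL/6N mice at postnatal day 2. The material was 2 independent pools of epithelium, each from 4 to 8 pups, read by droplet RNA sequencing that counts unique molecular identifiers (UMIs), where each UMI stands for 1 captured transcript. There was no treatment and no mutant, so every comparison is between classes of cells within the same pools and n = 2 pools throughout. Each pool mixes pups, so values of single pups were not separated.

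Members were chosen from measured values. A barcode counted as an LEC with 949 to 20198 UMIs and 446 to 4261 genes (the 2nd to 97th percentiles over both pools), at most 15% mitochondrial UMIs and at least 2% of UMIs from Cryaa and Cryab, the alpha crystallins. It counted as resting with under 1% of UMIs from Cryba2, Cryba4 and Crybb1, under 4 UMIs from 6 mitotic genes and under 4 from 3 histone genes. It was a member with at least 5 UMIs summed over Igfbp5, Podn and Ptgds. The rule found 2804 members among 21739 barcodes, of which 19051 were LECs and 12658 resting LECs. Pool 1 held 1744 members and pool 2 held 1060. They made up 15.8% of LECs in pool 1 (95% exact binomial interval 15.2 to 16.5) and 13.2% in pool 2 (12.5 to 14.0), intervals that cover counting error only. As a share of resting LECs the values were 23.0% and 20.9%.

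The lens epithelium is a single layer over the front of the lens. It transports nutrients, lays down the lens capsule, divides, and at the equator supplies cells that turn into fiber cells filled with crystallins. Igfbp5 encodes a secreted protein that binds insulin-like growth factors (IGFs) and extracellular matrix. Podn encodes podocan, a small leucine-rich matrix protein, and Ptgds makes prostaglandin D and also carries retinoids. In the lens, FGF signaling promotes fiber differentiation, while factors such as Pax6 and Foxe3 maintain the epithelial state.

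The 17 genes used to set these limits were left out of every test, and their values are only a description of the choice. Members carried a mean of 8.39 Igfbp5 UMIs per cell in pool 1 and 7.17 in pool 2, with 0.856 and 1.13 UMIs of Podn and 0.627 and 1.27 UMIs of Ptgds. Igfbp5 alone reached 5 UMIs in 81.2% and 67.0% of members, so the gate rested mainly on Igfbp5, less so in pool 2. All 3 genes were detected in 23.7% and 38.4% of members. Cells with exactly 5 gate UMIs, just inside the threshold, numbered 299 and 181, and cells with 4, just outside, numbered 400 and 290. The highest cell held 79 gate UMIs in pool 1 and 53 in pool 2.

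**Figure D1:**
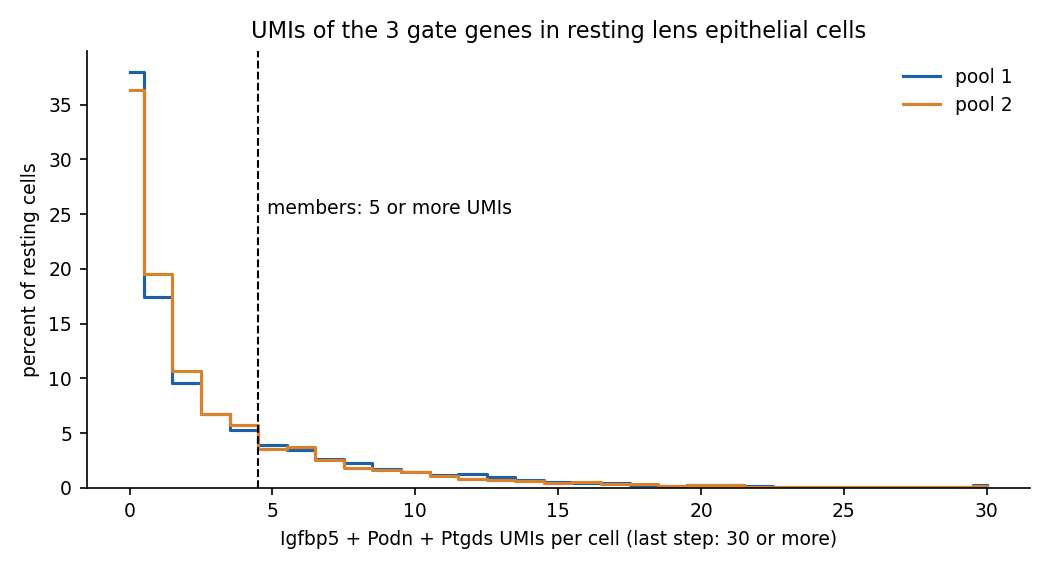
Percent of resting LECs (vertical axis) by the summed UMIs of Igfbp5, Podn and Ptgds per cell (horizontal axis, last step 30 or more), 1 line per pool, with the dashed line at the lower limit for members. The curves fall without a second peak, and the threshold divides a continuous range in both pools.

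How the 3 gate genes lay across cells is part of the same description, and nothing is read from it. Among resting LECs thinned to 3000 UMIs, the share with a Podn UMI was 5.73% in pool 1 and 6.71% in pool 2 where no Igfbp5 UMI was seen. It was 30.3% and 32.3% where 4 or more were seen. For Ptgds the shares were 5.73% and 8.69% without Igfbp5 and 25.3% and 32.9% with 4 or more UMIs.

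Gate genes were seen in other LECs as well. In cells with 4 or more UMIs of the mitotic genes, 18.3% and 16.4% had at least 5 gate UMIs, and in cells with 4 or more UMIs of the histone genes 13.4% and 15.2% did. In cells rich in the 3 beta crystallins the shares were 1.94% and 0.727%. Outside the LECs, 0 of 340 and 1 of 225 barcodes with the endothelial gene Cldn5 reached 5 gate UMIs. None of 176 and 217 barcodes marked by Rgs5, a mural cell gene, did. A count of 0 of 176 allows a share of up to 1.70%. Depth was not matched in these shares, and a fixed number of UMIs is reached more easily at high depth. Median UMIs were 8695 and 10387 in the mitotic cells and 7536.5 and 8890 in the histone cells. They were 12260 and 13504 in cells rich in beta crystallins, 3217 and 3640 in endothelial barcodes and 3351 and 3459 in mural barcodes.

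Members were compared with Igfbp5-poor resting LECs, which met the same limits but had under 5 gate UMIs. That class is a remainder of mixed cells: 42.9% and 44.4% of its cells held a UMI of Ccdc80, Adamtsl4, Rbm24, Nnat or Abca4, against 16.3% and 18.1% of members. The 5 genes were chosen after their values were seen, and all but Adamtsl4 were higher in cells rich in beta crystallins than in either class. At least 5 UMIs of them were found in 20.4% and 24.1% of Igfbp5-poor cells against 2.35% and 1.23% of members. The comparison with Igfbp5-poor cells is therefore also given with every cell that held such a UMI (an early differentiation cell below) left out, an alternative added after the data were seen. The name is short for holding any such UMI and does not show that a cell was differentiating. Of the cells with 4 or more UMIs of the mitotic genes, 30.6% and 28.3% held such a UMI too. Because the gate genes were first picked as leading genes of a cluster of these cells, the differences describe the class and are not independent evidence that it exists.

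Members were not deeper than the cells they were compared with. They had medians of 5682 and 7153.5 UMIs, and all Igfbp5-poor cells 5755 and 7386. For the tests, the same number of Igfbp5-poor cells was drawn in each pool within 20 bins of depth. Their medians were 5674 and 7146.5 UMIs. The median mitochondrial share was 5.84% and 5.76% in members against 5.52% and 5.30%. The median share of UMIs from ribosomal proteins was 16.8% and 18.2% against 18.0% and 19.5%. The pools shared 27 barcode sequences, and 0 of these were members in both.

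The label was checked against marker genes. Pax6, Cdh1 and Foxe3, which mark LECs and were not used by the gate, were detected in members of both pools. For B cells, whose lineage Igkc belongs to, 4 and 5 of 6 marker genes were at 0 in members, among them Ighm and Ms4a1, and the list summed to 0.460 and 0.248 CPM (counts per 1000000 UMIs of the members) in the pools. Endothelial markers summed to 25.6 and 16.7 CPM in members and 24.7 and 18.8 in Igfbp5-poor cells. The mural list summed to 455 and 429 CPM against 308 and 253, and Acta2, a smooth muscle actin, gave 407 and 385 of these in members. The fibroblast list summed to 134 and 142 CPM against 113 and 117, with Lum at 0 and most of the sum from Pdgfra. The macrophage list summed to 53.2 and 99.6 CPM against 41.4 and 48.8, almost all of it Apoe, with C1qa at 0 in members of both pools. Of 4 corneal keratins, Krt5, Krt12 and Krt14 were at 0 in members, and Krt15 was at 2.12 and 2.60 CPM against 1.70 and 0.985. The part of these lists in the results was not tested.

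The word resting was set beside cell cycle genes that the gate did not use. The 42 S phase genes summed to 1114 and 1532 CPM in members, against 4792 and 4710 in the mitotic class and 7718 and 7515 in the histone class. The 47 G2M genes summed to 1140.0 and 1272 CPM in members, against 9739 and 9261 in the mitotic class. Members were not the lowest class, since the sums in beta-crystallin-rich cells were 356 and 358 CPM for S phase genes and 969 and 963 CPM for G2M genes. All 42 S genes and all 47 G2M genes passed the test as lower in members than in dividing LECs, where 24.9% of all 13106 genes tested were lower. Mki67, the proliferation antigen Ki-67, was detected in 5.96% and 6.23% of members and in 87.6% and 88.4% of mitotic cells. Members and dividing LECs were set apart by other genes of the same program. The contrast between them therefore follows largely from the choice of cells and cannot test the word resting.

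Cell cycle genes were at about the level of the Igfbp5-poor class as a whole. Of the 42 S genes, 0 were higher and 1 was lower in members, with a median log2 difference of 0.044. The single gene was Rfc2, a clamp loader subunit. With cells that held early differentiation UMIs left out, 33 of 42 S genes were lower, with a median of -0.55, and lower G2M genes went from 8 to 18 of 47. The comparison of cell cycle genes thus changed with the makeup of the Igfbp5-poor class.

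In all, 1478 of 13106 genes (11.3%) were higher in members than in depth-matched Igfbp5-poor cells and 1559 (11.9%) were lower, by edgeR's quasi-likelihood test at an adjusted p of 0.05. The median log2 difference of all genes was 0.0037, and 217 genes rose and 305 fell by over 2-fold. With early differentiation cells left out, 874 were higher and 1044 lower. Of the genes called higher at first, 712 of the 1460 that were tested in both remained so, and 752 of the 1463 called lower remained lower.

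The label markers Igkc, Gja1 and Tenm2 are given with no test, since they are part of how the class was described. Igkc, the constant part of the immunoglobulin kappa light chain, stood at 135 and 131 CPM against 34.1 and 34.5. It was detected in 36.5% and 32.7% of members, against 11.7% and 10.2% of Igfbp5-poor cells and 0.588% and 0.444% of endothelial barcodes with medians of 3217 and 3640 UMIs. The counted segment lies on the plus strand of chromosome 6 at 70726435 to 70726966 in GRCm38. Gja1, which encodes the gap junction protein connexin 43, stood at 209 and 193 CPM against 62.5 and 64.3. Endothelial barcodes held it too, in 54.4% and 61.3% of cases, against 66.6% and 69.2% of members. Tenm2, a teneurin cell adhesion protein, stood at 189.6 and 186 CPM against 84.8 and 91.6. For all 3 genes both pools' members were above both pools' Igfbp5-poor cells.

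Besides Igkc, Gja1 and a globin gene given below, the 12 largest increases held 9 genes. R3hdml, a secreted protein of the CAP family, stood at 1755 and 1515 CPM against 671 and 630.4, a log2 difference of 1.33 ± 0.08 (SE, adjusted p = 5.29e-13). It reached 5 UMIs in 86.3% and 87.5% of members and in 31.2% and 32.9% of Igfbp5-poor cells, so it was the nearest to a gene present in every member. Sostdc1, a secreted antagonist of BMP and Wnt signals, stood at 94.9 and 98.7 CPM against 36.2 and 40.2, a log2 difference of 1.35 ± 0.08 (SE, adjusted p = 2.36e-13). Calca, the precursor of calcitonin and CGRP, stood at 75.4 and 78.2 CPM against 28.6 and 36.1, a log2 difference of 1.26 ± 0.09 (SE, adjusted p = 4.93e-12). Both pools' members were above both pools' Igfbp5-poor cells for each of these genes.

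Dusp5, a phosphatase that acts on ERK, was at 61.3 and 51.5 CPM against 20.3 and 16.5, a log2 difference of 1.61 ± 0.12 (SE, adjusted p = 1.72e-11). Bhlhe40, a transcriptional repressor of the circadian system, was at 66.3 and 83.7 CPM against 28.7 and 33.4, a log2 difference of 1.26 ± 0.08 (SE, adjusted p = 7.82e-13). It was detected in 28.0% and 34.8% of members and in more endothelial barcodes, 46.5% and 50.7%. Neat1, the noncoding RNA of paraspeckles, was at 285 and 219 CPM against 104 and 90.2, a log2 difference of 1.38 ± 0.07 (SE, adjusted p = 5.46e-15). For Dusp5, Bhlhe40 and Neat1 no pool of members overlapped the Igfbp5-poor class. The largest changes were picked among called genes that moved alike in both pools, so such separation follows largely from the choice. The share of all genes without overlap is not given, here or where separation is stated for other genes. Ndrg2 (log2 1.43), the microtubule protein gene Map2 (1.26) and Car8 (1.21), a carbonic anhydrase relative without enzyme activity, completed the group.

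The remaining gene of the 12 was Hbb-bs, an adult beta globin of red cells, at 66.4 and 327 CPM against 11.0 and 30.3, and it did not describe the class. Globin UMIs in members numbered 1004 and 4268, of which 89.9% and 97.8% lay in 3 cells of each pool. With cells holding 5 or more globin UMIs left out, 2 and 4 members among them, its log2 difference was -0.04 (adjusted p = 0.915).

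The 10 largest decreases were led by genes with low levels in members and high levels in cells rich in beta crystallins. Cdkn1c, the cell cycle inhibitor p57, was at 609.7 and 447 CPM against 2210.3 and 2127, a log2 difference of -2.04 ± 0.06 (SE, adjusted p = 1.91e-18). At least 20 UMIs of it were found in 2.35% and 1.60% of members, in 21.4% and 26.7% of Igfbp5-poor cells and in 91.9% and 91.3% of beta-crystallin-rich cells. Its log2 difference was -0.00 (adjusted p = 0.976) with early differentiation cells left out. Pmp22, a membrane protein of epithelia and myelin, was at 60.8 and 38.4 CPM against 269.8 and 205, a log2 difference of -2.25 ± 0.08 (SE, adjusted p = 5.09e-18), and at log2 -0.49 without those cells.

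Id1, an inhibitor of helix-loop-helix factors that BMP signals induce, was at 35.0 and 25.4 CPM against 222 and 151, a log2 difference of -2.62 ± 0.09 (SE, adjusted p = 1.47e-17). Pcp4l1, a calmodulin-binding protein gene, was at 31.9 and 36.7 CPM against 124 and 113, a log2 difference of -1.81 ± 0.08 (SE, adjusted p = 4.88e-16). Adra2c, an alpha-2 adrenergic receptor, was at 13.9 and 13.8 CPM against 67.9 and 69.0, a log2 difference of -2.30 ± 0.09 (SE, adjusted p = 8.34e-17). All 3 genes were below Igfbp5-poor cells in both pools and also passed the test as lower without early differentiation cells, by -1.14, -1.71 and -0.91 on the log2 scale. The other 5 (Rbm24, Ccdc80, Abca4, Adamtsl4 and Nnat) had log2 differences from -2.94 to -2.40 and define the cells left out.

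**Figure D2:**
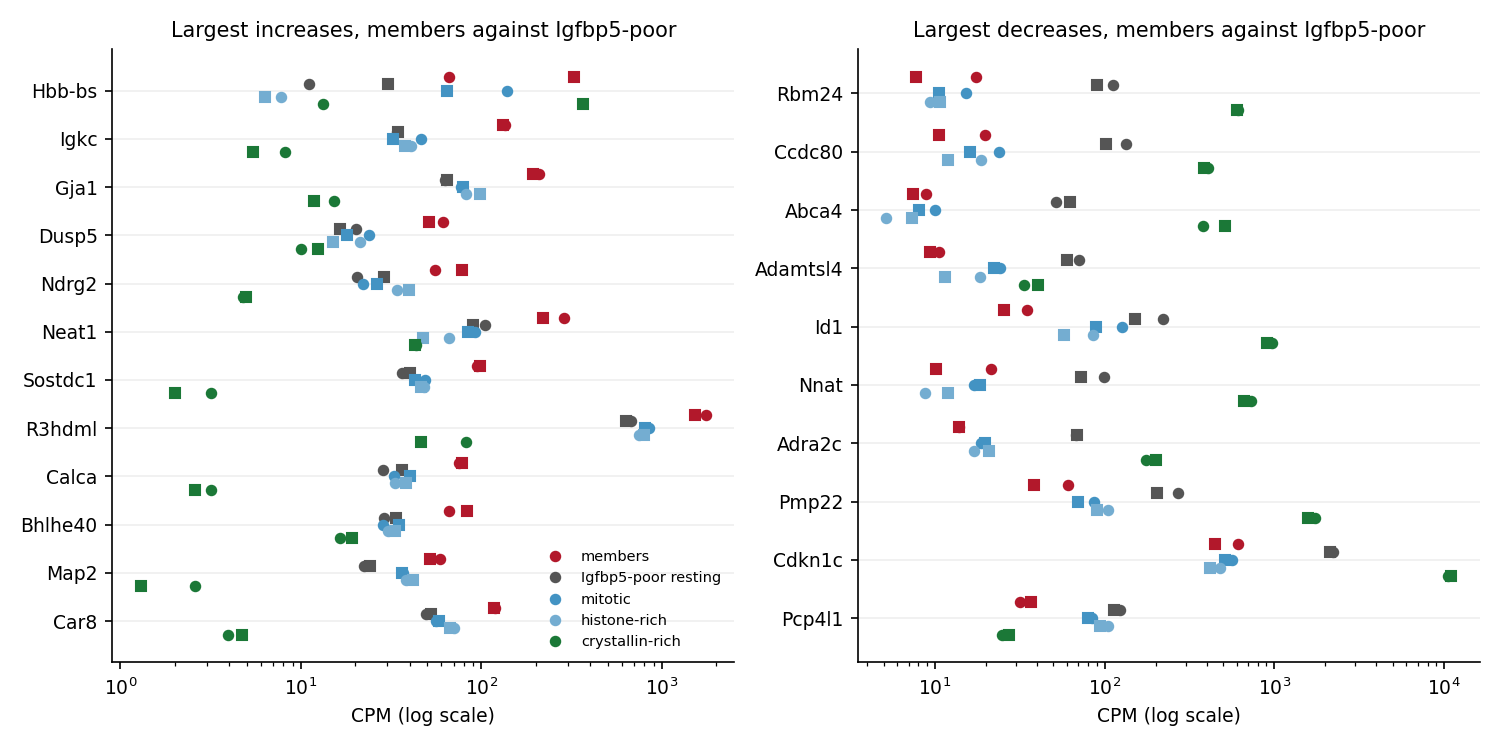
CPM (log axis) of the 12 largest increases and 10 largest decreases in 5 classes of LECs, with circles for pool 1 and squares for pool 2. Members lie to the right of every other class in both pools for Igkc, Gja1, Dusp5, Neat1 and R3hdml, while the 2 pools lie far apart for Hbb-bs in members and in crystallin-rich cells.

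Levels are also given over the range of gate UMIs. The genes were picked for their difference across the gate, so a rise or fall follows in part from that choice. Counting noise at so few UMIs would blur a boundary, so the levels cannot show whether the class had an edge. Resting LECs were divided at 0, 1, 2 to 4, 5 or 6, 7 to 9 and 10 or more gate UMIs, as a description without a test. Of the 12 largest increases, 6 rose at every step in both pools (Ndrg2, Sostdc1, R3hdml, Calca, Bhlhe40 and Map2). R3hdml was 7.41-fold and 7.40-fold higher at 10 or more gate UMIs than at 0, and 1.17-fold and 1.13-fold higher than at 5 or 6. Gja1 was 8.26-fold and 7.97-fold higher at 10 or more than at 0, and Igkc 12.8-fold and 19.1-fold. Of the 10 decreases, Pcp4l1 alone fell at every step in both pools. Cdkn1c went from 3327 and 3775 CPM at 0 gate UMIs to 770.4 and 969 CPM at 2 to 4, before the threshold was reached. R3hdml went from 276 and 227 CPM at 0 to 1489 and 1168 at 2 to 4, and to 2048 and 1682 at 10 or more. For both genes most of the change therefore lay below the threshold of 5. The other 9 decreases did not fall at every step in both pools.

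**Figure D3:**
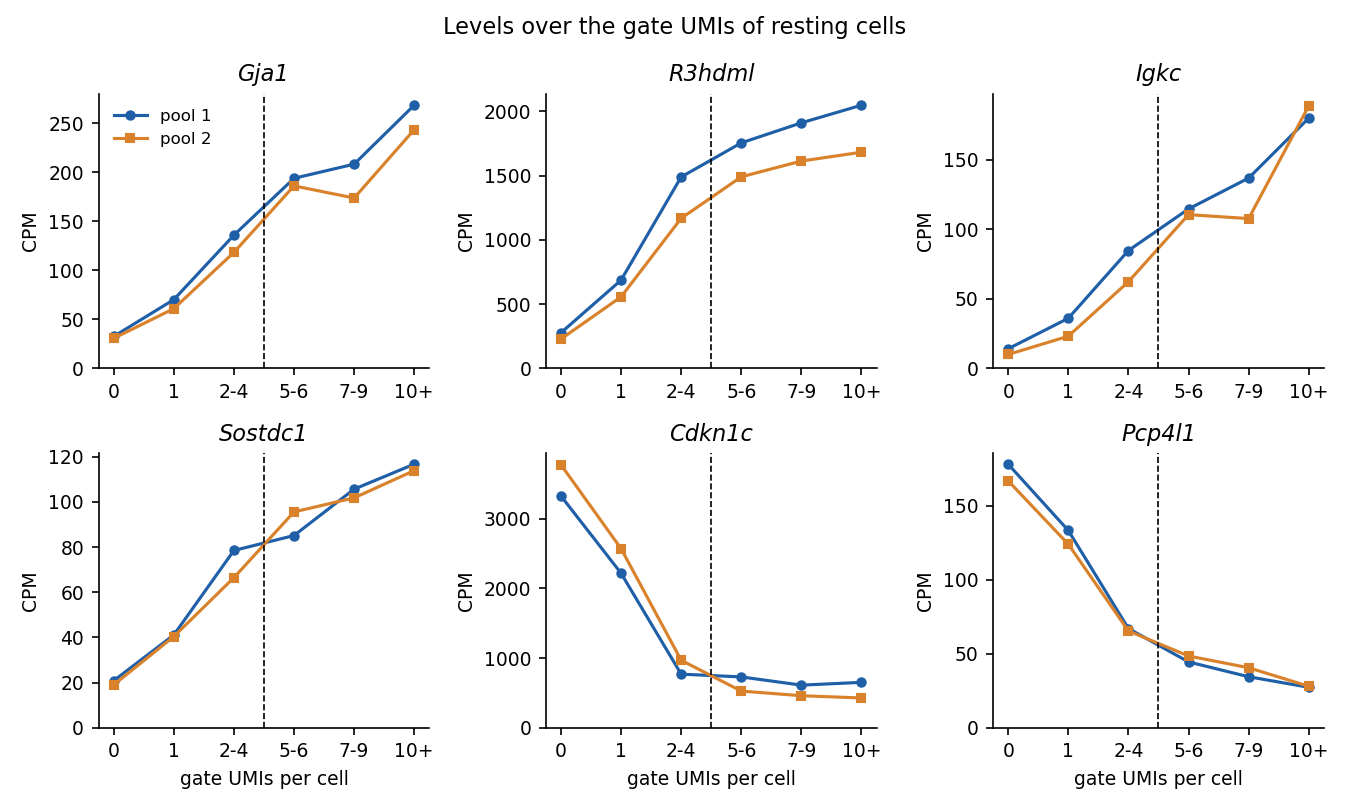
CPM of 6 genes in resting LECs (vertical axes) by gate UMIs per cell (horizontal axes), 1 line per pool, with the dashed line at the threshold for members. R3hdml rises and Pcp4l1 falls at every step in both pools, and Cdkn1c is low from 2 to 4 gate UMIs onward.

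Genes that the study's Progenitor cluster was described with were, as a list, higher in members. All 10 passed the test (Slc7a11, Folr1, Cntf, Sostdc1, Klf4, Ctsl, Fzd2, Tfap2a, Tgfb2 and Pcolce), but the list was taken from these same samples and is no independent evidence. Slc7a11, the cystine and glutamate exchanger, was at 416 and 404 CPM against 182 and 208, a log2 difference of 1.08 ± 0.07 (SE, adjusted p = 6.33e-13). Folr1, the folate receptor, was at 937 and 979 CPM against 423 and 469.7, a log2 difference of 1.10 ± 0.06 (SE, adjusted p = 5.03e-14). Cntf, a neurotrophic cytokine, was at 234 and 213 CPM against 125 and 128, a log2 difference of 0.83 ± 0.06 (SE, adjusted p = 5.07e-11), and reached 2 UMIs in 42.0% and 45.5% of members against 18.7% and 22.1%. In all 3 cases the classes did not overlap between pools. The smallest differences were those of Tgfb2 (log2 0.30) and the cathepsin gene Ctsl (0.32). Those 2 did not pass without early differentiation cells (adjusted p = 0.105 and 0.153), while the other 8 did.

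The promoters of Igfbp5, the main gate gene, and of Gja1 and R3hdml, from the largest increases, are shown so that their sequence can be read beside the levels. Each runs from 250 bases before to 50 after the start of the gene in RefSeq (GRCm38.p6, the build named mm10), in the direction of transcription. Capitals mark matches on either strand to the AP-1 motif TGANTCA, the AP-2 motif GCCNNNGGC, the STAT motif TTCNNNGAA or the E-box CACGTG.
Igfbp5 (chr1:72874816-72875115, minus strand): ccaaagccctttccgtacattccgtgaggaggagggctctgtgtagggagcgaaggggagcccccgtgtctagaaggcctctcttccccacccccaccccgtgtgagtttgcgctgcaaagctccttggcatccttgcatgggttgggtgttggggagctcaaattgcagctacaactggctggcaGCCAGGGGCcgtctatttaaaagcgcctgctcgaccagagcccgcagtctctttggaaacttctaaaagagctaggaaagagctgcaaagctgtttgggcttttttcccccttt
Gja1 (chr10:56377050-56377349, plus strand): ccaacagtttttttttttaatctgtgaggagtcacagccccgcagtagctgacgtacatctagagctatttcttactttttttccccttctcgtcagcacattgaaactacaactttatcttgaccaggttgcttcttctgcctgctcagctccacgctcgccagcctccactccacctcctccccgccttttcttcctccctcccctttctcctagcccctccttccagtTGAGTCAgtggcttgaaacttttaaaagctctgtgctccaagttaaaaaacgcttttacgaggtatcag
R3hdml (chr2:163492068-163492367, plus strand): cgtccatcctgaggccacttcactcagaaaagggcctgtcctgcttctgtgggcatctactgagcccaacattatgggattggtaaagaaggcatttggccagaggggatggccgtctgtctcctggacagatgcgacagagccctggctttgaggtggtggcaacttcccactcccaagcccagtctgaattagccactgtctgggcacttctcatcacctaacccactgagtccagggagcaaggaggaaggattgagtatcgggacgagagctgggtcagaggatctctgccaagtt
Igfbp5 held 1 AP-2 match, Gja1 held 1 AP-1 match and R3hdml held none of the 4 motifs. Of 10057 promoters of tested genes, 25.5% held the AP-2 motif, 4.34% the AP-1 motif, 6.53% the STAT motif and 10.3% the E-box. Promoters were found for 7 of the 12 largest increases, and 2 of these held AP-1, Gja1 and the globin gene Hbb-bs. Such a match is a string of letters and not a binding site.

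Genes were then read in groups, each beside the 11.3% of all genes called higher and 11.9% called lower. Of 17 tested genes of the IGF axis, 7 were higher and 3 lower, with a median log2 difference of 0.50. Igfbp7, another IGF binding protein of the matrix, was at 4957 and 5304 CPM against 3164 and 3546, a log2 difference of 0.61 ± 0.05 (SE, adjusted p = 8.04e-11). Htra1, a secreted protease that cleaves IGF binding proteins, was at 309.9 and 334 CPM against 158 and 178, a log2 difference of 0.94 ± 0.05 (SE, adjusted p = 3.74e-14). Igf2r, the receptor that clears IGF2, was lower, at 58.7 and 63.7 CPM against 133 and 138, a log2 difference of -1.15 ± 0.06 (SE, adjusted p = 5.71e-14). Members and Igfbp5-poor cells did not overlap between pools for any of these genes, which follows in part from how the genes were picked. With early differentiation cells left out 4 of 14 were higher and 3 lower, the median was 0.21, and 7.24% of all genes were higher and 8.65% lower.

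Matrix genes were called higher more often than lower. Of 15 small leucine-rich and matricellular genes, Podn not counted, 11 were higher and 3 lower (median log2 0.57). Sparc, a collagen-binding protein of basement membranes, was at 3929 and 3742 CPM against 2312 and 2173, a log2 difference of 0.77 ± 0.04 (SE, adjusted p = 1.24e-14). Spon1, the matrix protein spondin 1, was at 533 and 567 CPM against 303 and 345, a log2 difference of 0.77 ± 0.05 (SE, adjusted p = 6.29e-13). Of 20 genes of the lens capsule, 9 were higher and 2 lower. Col4a1 and Col4a2, the main type IV collagen chains, differed by 0.43 and 0.55 on the log2 scale, while Lama1, the laminin alpha 1 chain, was lower by -0.83. Of the matricellular genes 9 of 14 were higher and 2 lower without early differentiation cells, and of the capsule genes 9 of 19 were higher and 2 lower.

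Junction and transport genes were called in both directions. Of 23 genes of junctions and adhesion, 9 were higher and 4 lower, and without early differentiation cells 8 of 21 were higher and 0 lower. While Gja1 was higher, Gja3 (connexin 46) was at 484 and 447 CPM against 513 and 476 and did not pass (adjusted p = 0.178). Of 17 nutrient transport genes, 7 were higher and 2 lower, and without those cells 5 of 16 were higher and 3 lower. Slc2a1, the glucose transporter GLUT1, was at 892 and 852 CPM against 964 and 865 with ranges that overlapped (adjusted p = 0.352).

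Transcription factors of the epithelium and of fibers were read as separate lists. Of 16 epithelial factors 8 were higher and 2 lower, and without early differentiation cells 8 of 15 were higher and 1 lower. Tsc22d1 was at 1638 and 1489.6 CPM against 1049 and 885, a log2 difference of 0.70 ± 0.05 (SE, adjusted p = 8.82e-12), and Sox2 was lower at -0.39. Of 7 factors of fiber differentiation 0 were higher and 4 lower (median log2 -0.44), but without those cells 2 were higher and 2 lower (median -0.19). Gata3, which fiber cells need to leave the cell cycle, was at 5.18 and 3.37 CPM against 44.7 and 39.8, a log2 difference of -3.27 ± 0.14 (SE, adjusted p = 7.06e-16), and was lower without early differentiation cells too (log2 -3.38). Prox1, a homeodomain factor of fiber elongation, was at 323 and 315 CPM against 474 and 452, a log2 difference of -0.54 ± 0.05 (SE, adjusted p = 1.26e-09). Maf, the main activator of crystallin genes, was lower by -0.44 but higher by 0.23 once those cells were left out.

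Crystallin and fiber genes, which the gate limits only through 3 beta crystallins, were more often called lower than higher, with counts near even once early differentiation cells were left out. Of 11 other beta and gamma crystallins 3 were higher and 6 lower (median log2 -0.27), and without those cells 3 were higher and 4 lower (median 0.032). Crybb3 was at 14991 and 14171 CPM against 22208 and 21526, a log2 difference of -0.59 ± 0.03 (SE, adjusted p = 1.83e-13). Cryba1 was lower by -0.27 but higher by 0.28 without early differentiation cells. Of 15 fiber cell genes 0 were higher and 6 lower (median -0.17), and without those cells 2 of 12 were higher and 2 lower (median 0.018). Mip (aquaporin 0) was at 229 and 210.2 CPM against 207 and 189 and Lim2 at 439 and 448 CPM against 462 and 483 in all matched cells, and neither passed (adjusted p = 0.0691 and 0.235). Both were higher without those cells (log2 0.24 and 0.39).

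Signaling pathways were described by their receptors, inhibitors and response genes. Of 16 Notch pathway genes 1 was higher and 7 lower. Hes5, a repressor that Notch induces, was at 101 and 194 CPM against 210.1 and 417, a log2 difference of -1.08 ± 0.08 (SE, adjusted p = 1.27e-11). The pools differed in Hes5 by about as much as the classes, but within each pool members were lower. Heyl, another effector, was at 1.25 and 1.87 CPM against 9.37 and 8.94, a log2 difference of -2.59 ± 0.24 (SE, adjusted p = 3.33e-09). Hes1 was at 656 and 830.2 CPM against 648 and 867 and did not pass (adjusted p = 0.767). Jag1, a Notch ligand of the differentiating lens, was lower by -1.76 on the log2 scale; it was named after its value was seen. Without early differentiation cells 0 of 16 were higher and 6 lower.

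FGF response genes were also more often lower, 7 of 15 with 1 higher. Etv4, an ETS factor that FGF induces, was at 0 in members of both pools and at 1.21 and 1.17 CPM in Igfbp5-poor cells. Of the receptors, Fgfr1 was at 58.9 and 50.7 CPM against 54.0 and 48.8 and Fgfr2 at 83.7 and 85.4 CPM against 75.8 and 78.1, and neither passed (adjusted p = 0.369 and 0.135). Dusp6, a phosphatase that FGF signals induce, was lower by -2.02 on the log2 scale and was named after its value was seen. Without early differentiation cells 4 of 14 response genes were lower and 1 higher.

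Of 23 Wnt pathway genes 8 were higher and 1 lower, and without early differentiation cells 7 were higher and 0 lower. Wnt7a, a ligand, was at 16.6 and 15.7 CPM against 4.54 and 4.15, a log2 difference of 1.89 ± 0.18 (SE, adjusted p = 4.05e-09). Wls, which carries Wnt proteins to the surface, was at 193 and 196 CPM against 108 and 121, a log2 difference of 0.77 ± 0.06 (SE, adjusted p = 2.92e-11). Sfrp1, a secreted inhibitor, was at 1334 and 1204 CPM against 911 and 835, a log2 difference of 0.54 ± 0.04 (SE, adjusted p = 2.23e-11). Ligand, carrier and inhibitor were thus higher together, in both pools. Fzd6, a receptor, was lower by -0.79. Without early differentiation cells 4 of 17 BMP and TGF-beta genes were higher and 3 lower. In all matched cells 7 of 20 were higher and 3 lower, with R3hdml and Sostdc1 among the former and Id1 and Id3 among the latter. Id3 was at 744 and 919 CPM against 924 and 1018, a log2 difference of -0.23 ± 0.05 (SE, adjusted p = 4.48e-04).

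The STAT3 group, which follows cytokines such as CNTF, had 5 of 13 genes higher and 1 lower, and 4 higher and 1 lower without early differentiation cells. Socs3, a feedback inhibitor, was at 740.5 and 714 CPM against 529 and 533, a log2 difference of 0.45 ± 0.05 (SE, adjusted p = 2.25e-08). Cish, another, was at 8.40 and 5.86 CPM against 3.43 and 4.02, a log2 difference of 0.99 ± 0.22 (SE, adjusted p = 0.00112). Lifr, a receptor subunit of the CNTF complex, was lower by -0.68. Of 19 immediate early genes 11 were higher and 3 lower, but without early differentiation cells 6 were higher and 4 lower, and with no replicate block 3 were higher and 1 lower. Fosl2 was at 14.9 and 16.7 CPM against 5.19 and 6.48, a log2 difference of 1.45 ± 0.16 (SE, adjusted p = 5.04e-08), while Atf3 was lower by -0.69 and Fos, at 4128 and 3579 CPM against 3807 and 3351, did not pass (adjusted p = 0.231). Tissue dissociation is known to induce these genes, and its part here was not tested.

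Among 18 genes of cell cycle arrest and quiescence, 6 were higher and 1, Cdkn1c, lower. Without early differentiation cells 5 of 17 were higher and 0 lower. Txnip, an inhibitor of thioredoxin, was at 5.72 and 6.36 CPM against 2.04 and 2.33, a log2 difference of 1.46 ± 0.24 (SE, adjusted p = 4.51e-05). Btg1, an antiproliferative gene, was at 1439.6 and 1215 CPM against 1199 and 1009.9, a log2 difference of 0.27 ± 0.04 (SE, adjusted p = 2.17e-05). Txnip counts were few, and Btg1 was higher in each pool though the pools' levels differed.

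Metabolic groups differed in direction. Of 20 cholesterol synthesis genes 0 were higher and 14 lower (median log2 -0.43). Idi1, an isomerase of the pathway, was at 31.3 and 25.4 CPM against 54.0 and 42.7, a log2 difference of -0.77 ± 0.12 (SE, adjusted p = 1.71e-05), and Hmgcs1, which makes HMG-CoA, at 71.1 and 48.4 CPM against 84.9 and 69.4, a log2 difference of -0.36 ± 0.09 (SE, adjusted p = 0.00427). Of 21 glutathione and antioxidant genes 3 were higher and 8 lower, against 2 higher and 5 lower without early differentiation cells. Gstm1, a glutathione transferase, was at 1464 and 1431 CPM against 2653 and 2440.3, a log2 difference of -0.81 ± 0.04 (SE, adjusted p = 3.17e-15). Of 19 lysosome genes 14 were higher and 0 lower (median log2 0.27), with Lamp2, a membrane protein of the lysosome, at 149 and 159 CPM against 99.4 and 99.5, a log2 difference of 0.63 ± 0.06 (SE, adjusted p = 2.02e-09). Without early differentiation cells 10 of 20 cholesterol genes were lower and 12 of 19 lysosome genes were higher, so these groups kept their direction. Fewer were called with no replicate block, 4 of 20 cholesterol genes lower and 3 of 19 lysosome genes higher, with 0 the other way. In that setting 4.67% of all genes were higher and 4.13% lower.

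Of 19 glycolysis and hypoxia genes 7 were higher and 0 lower, and without early differentiation cells 6 were higher and 2 lower. Hk2, a hexokinase, was at 124 and 111 CPM against 57.9 and 57.4, a log2 difference of 1.03 ± 0.07 (SE, adjusted p = 3.60e-12), while Gapdh, at 3015 and 2763 CPM against 2902 and 2733, did not pass (adjusted p = 0.545). Of 14 genes of retinoid, prostaglandin and aldehyde metabolism 6 were higher and 3 lower (median log2 0.41), but without those cells 3 of 12 were higher and 3 lower (median 0.072). Anxa1, an inhibitor of prostaglandin release, was at 1825 and 2056 CPM against 969 and 1067, a log2 difference of 0.93 ± 0.06 (SE, adjusted p = 7.03e-13). Aldh1a1, a retinaldehyde dehydrogenase, was at 1143 and 986 CPM against 881 and 787, a log2 difference of 0.35 ± 0.05 (SE, adjusted p = 3.01e-06), but did not pass without early differentiation cells (adjusted p = 0.672). Anxa1 did (log2 0.55).

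A list named for neuropeptides and immunoglobulins was mixed, since it also held other genes such as Parm1 and Erich5, and it was chosen with earlier results known. Of its 8 tested genes 7 were higher and 0 lower, and without early differentiation cells 7 of 7 were higher. Parm1 was at 287 and 260.4 CPM against 141 and 138, a log2 difference of 0.97 ± 0.06 (SE, adjusted p = 2.36e-13), and Erich5 at 229 and 208 CPM against 120.3 and 124, a log2 difference of 0.84 ± 0.06 (SE, adjusted p = 1.93e-11). Of 12 interferon response genes 3 were higher and of 7 chemokine genes 2 were higher and 1 lower. Without those cells 1 interferon gene was higher, and 1 chemokine gene was higher and 1 lower. Cxcl10, at 4.20 and 4.74 CPM against 1.21 and 0.130, changed direction with another random draw of the match (log2 -0.59, adjusted p = 0.462).

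**Figure D4:**
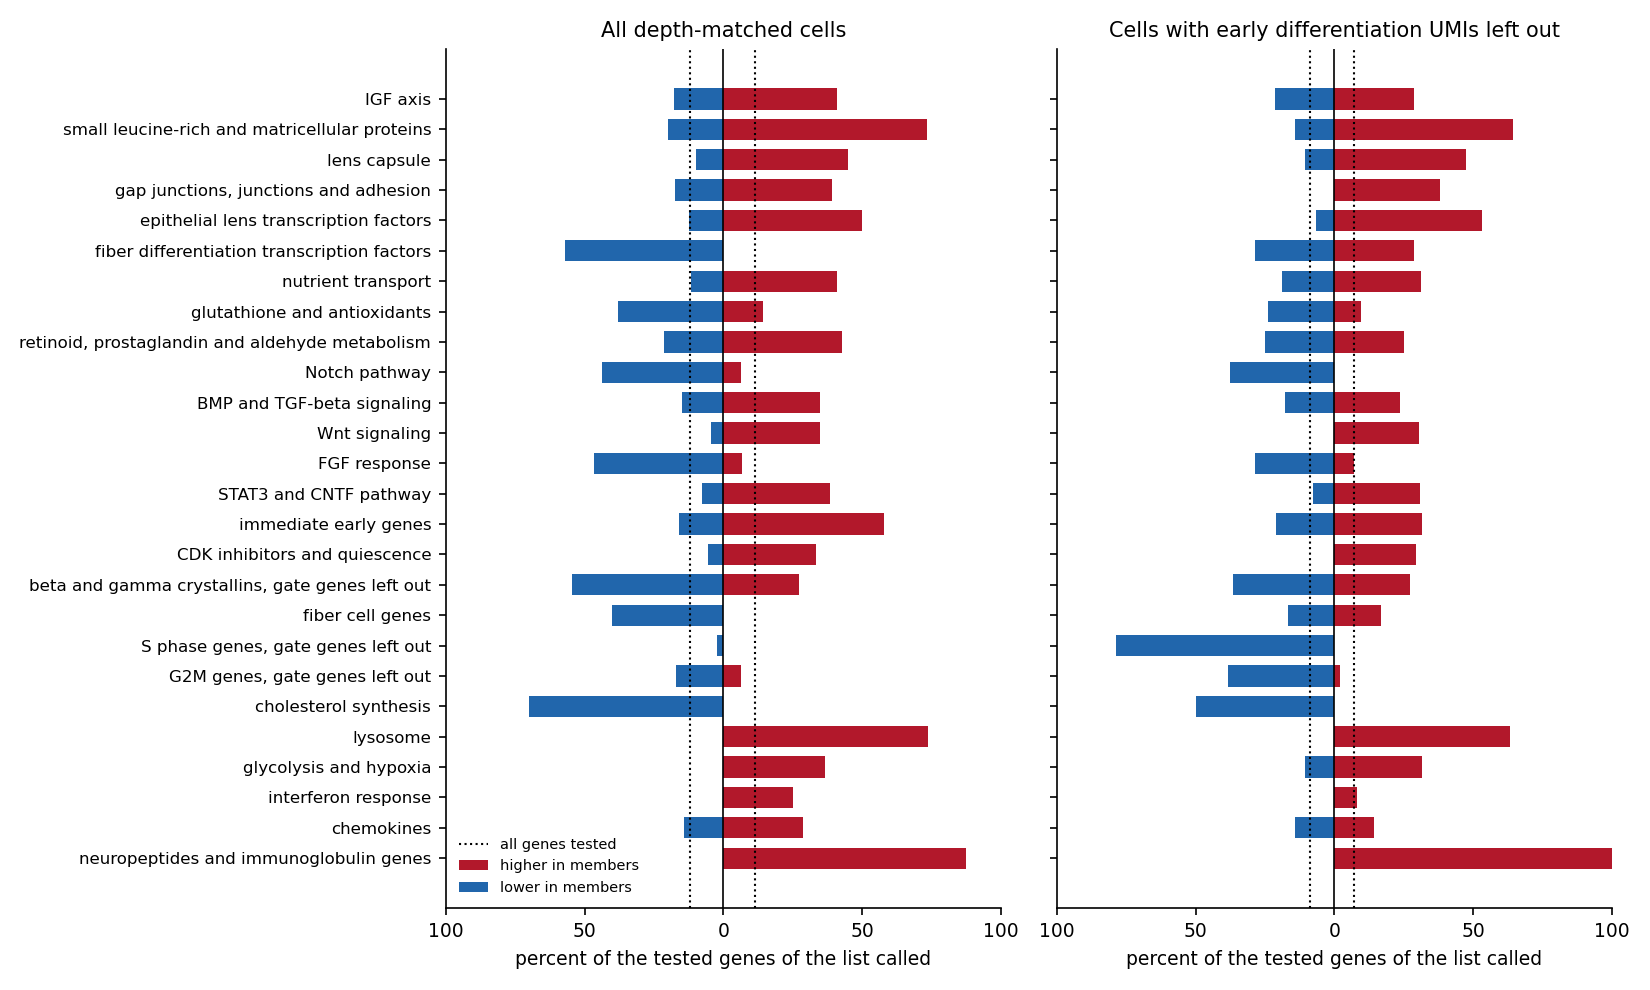
Percent of the tested genes of each list called higher (red, to the right) or lower (blue, to the left) in members than in Igfbp5-poor cells, for all depth-matched cells and with early differentiation cells left out, with dotted lines at the percents of all genes tested. Lysosome, matricellular and capsule genes lie to the right and cholesterol genes to the left in both panels, and S phase genes move from 1 to 33 of 42 called lower.

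**Figure D5:**
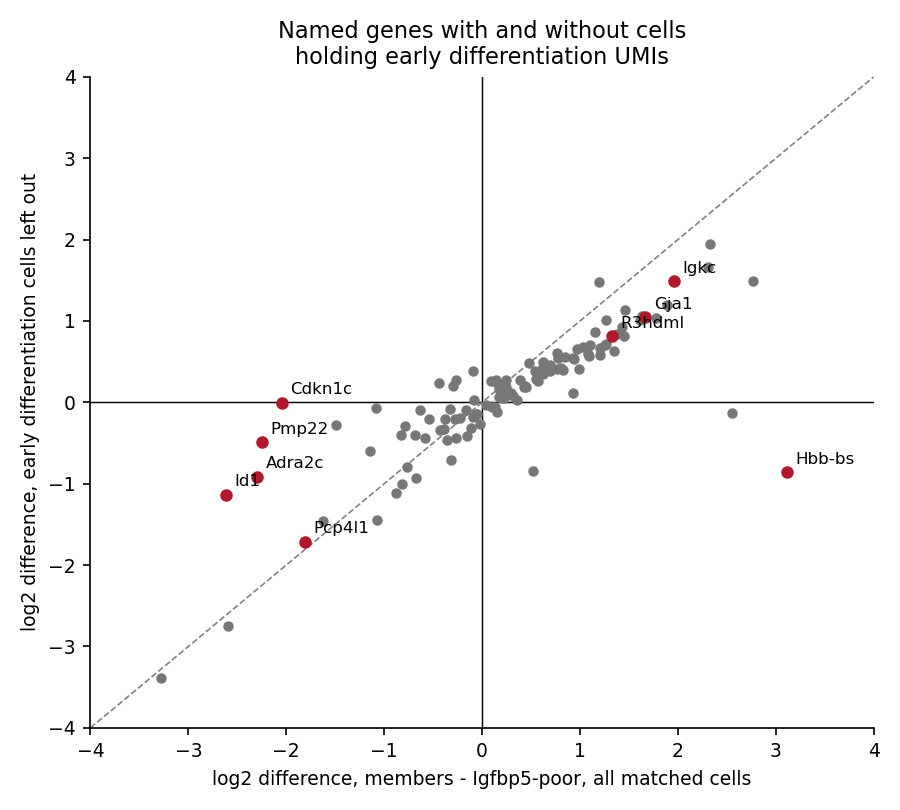
Log2 difference between members and Igfbp5-poor cells for the named genes, in all depth-matched cells (horizontal axis) and with early differentiation cells left out (vertical axis), where the dashed line marks equal values. Igkc, Gja1 and R3hdml stay positive at smaller values, Cdkn1c moves to near 0 and Hbb-bs changes sign.

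Members were then set beside LECs rich in beta crystallins, where depth was not matched and medians were 12260 and 13504 UMIs. Of 13106 genes, 4109 (31.4%) were higher in members and 4174 (31.8%) lower, 63.2% in all. Since 1270 of 1290 and 941 of 963 cells of the crystallin-rich class held an early differentiation UMI, leaving such cells out kept few of them, and 330 genes were then higher and 174 lower. R3hdml was at 81.6 and 46.0 CPM in the crystallin-rich class, a log2 difference of 4.66 (SE 0.10, adjusted p = 1.60e-24). Sostdc1 differed by 5.19 and Slc7a11 by 4.71. Of the fiber cell genes 14 of 15 were lower in members, of the cholesterol genes 20 of 20, and of the S phase genes 41 of 42 were higher. Pcp4l1, the gene that fell along the gate, was higher in members here, by 0.38 (adjusted p = 0.00112).

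Against dividing LECs, the mean of the mitotic and histone classes on the log scale, 3218 genes (24.6%) were higher in members and 3266 (24.9%) lower, 49.5% in all. Depth was not matched here either. Without early differentiation cells 2866 were higher and 2989 lower. Neat1 was at 87.9 ± 5.27 (SD) and 56.8 ± 13.5 CPM in the mitotic and histone classes, a log2 difference of 1.84 (SE 0.06, adjusted p = 9.63e-20). Slc7a11 differed by 1.17 and Cntf by 1.07 on the log2 scale. Of 19 lysosome genes 16 were higher and 0 lower, and of 23 junction genes 14 were higher and 0 lower. Cdkn1c, at 609.7 and 447 CPM in members, was also low in the mitotic and histone classes, at 538 and 451 CPM (log2 difference 0.10, SE 0.06, adjusted p = 0.160).

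The members differed among themselves. In members thinned to 3000 UMIs (1720 and 1057 cells), the ratio of variance to mean over cells had a median of 1.02 and 1.03 over 3680 genes. It was 11.1 and 10.5 for Malat1, a nuclear noncoding RNA, and 7.46 and 7.10 for Crybb3. Immediate early genes varied widely, with Jun at 5.50 and 5.42, Btg2 at 4.59 and 5.98 and Fos at 4.22 and 5.11. Hes5 was at 4.96 and 4.26 and reached 5 UMIs in 4.30% and 10.2% of members, against 7.43% and 14.6% of Igfbp5-poor cells. Xist, which only female cells transcribe, was at 3.32 and 4.24. These ratios include counting noise and carry no test.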

How the data were processed

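RNA of 2 pools of P2 lens epithelium was read with the 10x Genomics 3′ kit. The authors deposited filtered tables of raw UMI counts, made with Cell Ranger 6.1.1 on mm10 per the submitters' notes and the file headers. The values are whole UMI numbers for each gene in each barcode called as a cell. The pools hold 93839132 and 86033032 UMIs, with medians of 6307 and 8050 per barcode. Gene positions come from GENCODE vM21 and promoters from RefSeq.

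Counts were read in Python 3.11.15 with NumPy 2.4.6, SciPy 1.17.1 and pandas 2.3.3, doublet scores came from Scrublet in scanpy 1.11.5, and figures were drawn with matplotlib 3.10.9. UMIs were summed per pool over 5 classes of LECs: members, Igfbp5-poor, mitotic (4 or more UMIs of Ube2c, Cenpf, Cdc20, Ccnb1, Prc1 and Hmmr), histone (4 or more of Hist1h1b, Hist1h2ap and Hist1h2ae, not mitotic) and beta-crystallin-rich. The 17 gate genes were removed before library sizes were computed. The quasi-likelihood test of edgeR 4.0.16 (R 4.3.3) was run on the sums, scaled by TMM and filtered by filterByExpr, with pool as a block and Benjamini-Hochberg adjustment over 13106 genes at 0.05. The block was used because cells of 1 pool share their origin, and the deviations of classes from 1 pool correlated by 0.105 to 0.302 over 10 pairs of classes. With the block, the mean difference between the pools is removed. Each p thus rests on how far the differences between the 5 classes varied between the 2 pools. This leaves 4 residual degrees of freedom per gene, to which edgeR added a median of 22.6 prior degrees of freedom borrowed from other genes. Tested on simulated data for members against Igfbp5-poor cells, the fit recovered 19, 39, 46 and 50 of 50 genes changed by 1.25, 1.5, 2 and 4-fold, with 2 false calls among 12529 unchanged genes. The simulated counts took their spread from the fit itself, with a pool effect shared by all classes. Changes were placed only in genes above a minimum mean count. The simulation therefore cannot show the rate of false calls in the real data.

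No doublets were removed in the main comparison. Scrublet's own threshold called 3.82% and 2.68% of barcodes, and the 8% with the highest scores were left out as an alternative. That group held 123 and 70 members. The members, gene lists and tests were chosen with earlier results of these data known. Genes named in the text are the label markers, the 12 largest increases and 10 largest decreases among called genes that moved alike in the 2 pools and reached 50 CPM in the higher class, up to 4 genes of each list (its largest change in each direction and its highest levels) and the genes given for the study's Progenitor cluster. Some genes that this rule names are not reported here. Alternatives were DESeq2 1.42.0, no filter, no block, thresholds of 4 and 8 gate UMIs, Igfbp5 alone, cells thinned to 3000 UMIs, no depth match, another draw of the match, a stricter Igfbp5-poor class, 2 classes in the fit, no cells under 1% mitochondrial UMIs, and each pool left out. Leaving out cells with early differentiation UMIs, or with 5 or more globin UMIs, was added after seeing the data.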

Additional observations from a re-analysis of the deposited data

Results flagged for a closer look

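Gate genes were also seen in barcodes that the comparisons did not use. Among barcodes with over 20198 UMIs, 48 of 286 (16.8%) in pool 1 and 57 of 367 (15.5%) in pool 2 held 5 or more UMIs of Igfbp5, Podn and Ptgds. Their medians were 24417 and 24536 UMIs, and Igfbp5 stood at 63.6 and 50.9 CPM there, against 1346 and 942 CPM in members. Among barcodes with over 15% mitochondrial UMIs, 6 of 173 (3.47%) and 5 of 229 (2.18%) reached 5 gate UMIs at medians of 936 and 970 UMIs per barcode, with Igfbp5 at 322 and 338 CPM. These values are given because the barcodes lay outside the limits set for LECs. They use the gate genes themselves, a fixed number of UMIs is reached more easily at high depth, and nothing is read from them. The cause was not tested.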

How the results depend on the processing

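For the 101 named genes called in the comparison with Igfbp5-poor cells, 1608 of 1709 values under the alternatives were counted as the same. Another 90 kept the direction but not the call, and 11 reversed. The 1608 include 100 values without pool 1 and 101 without pool 2, where only the direction could be checked. The rest of the 1608 kept direction and call. Higher and lower genes numbered 620 and 728 with DESeq2 and 612 and 541 with no replicate block on the pool, and 874 were higher with early differentiation cells left out. With no replicate block, and with DESeq2, 11 of the 12 largest increases remained called, all but Hbb-bs. Against dividing LECs DESeq2 called 1937 genes higher. Members were 18.1% of LECs at 4 or more gate UMIs, 7.95% at 8 or more and 19.6% on thinned cells, and between 13.2% and 15.8% with a pool left out. Their summed S and G2M genes lay at 1114 to 1532 and at 1140.0 to 1272 CPM with a pool left out. With 1 pool no residual degrees of freedom remain, so single-pool values carry no test, and Atp1b1, called at log2 -0.43, lay between -0.91 and 0.0081 with a pool left out.

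Reversals among called genes were Hbb-bs (log2 -0.45 on thinned cells, -0.49 with Igfbp5 alone, -0.86 without early differentiation cells, -0.043 without globin-rich cells), Cxcl10 (-0.10 at 4 gate UMIs, -0.10 without high doublet scores, -0.59 with another draw, -0.13 without early differentiation cells), and Maf (0.23) and Cryba1 (0.28) without early differentiation cells. Genes not called also changed sign: without early differentiation cells Ddit4 (0.20), E2f8 (-0.85), Fgfr2 (-0.057), Fos (-0.062), Gapdh (-0.032), Gja3 (0.027), Lim2 (0.39) and Slbp (-0.12), at 8 gate UMIs E2f8 (-0.14) and Sc5d (-0.11), with Igfbp5 alone H2-D1 (0.47), and Hes1 unmatched (0.059), with another draw (0.0059), against the stricter class (0.028) and on thinned cells (0.055). The cause was not tested. Genes with few UMIs per pool, such as Cxcl10, are limited by depth.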

Other observations

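Apoe, which carries lipids and is known for high levels in macrophages, was the gene of the macrophage list that members held. It stood at 52.1 and 97.6 CPM in members and at 33.0 and 40.5 CPM in all Igfbp5-poor cells. Pf4 was at 0.460 and 1.49 CPM in members and 4.72 and 4.96 CPM in Igfbp5-poor cells, and only 3 and 8 members held 2 or more of the 6 macrophage markers. Acta2 was at 407 and 385 CPM in members and 268 and 219 CPM in Igfbp5-poor cells, while Rgs5 was at 25.1 and 26.7 CPM against 22.5 and 16.6. Tyrp1, a melanin synthesis gene, was at 4.69 and 4.59 CPM against 1.23 and 1.28, with Mlana and Rpe65 at 0 in members. These are values over all cells of each class, with no test and no match on depth.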
